A study of Mus musculus with 12 samples.

Results

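The insulin-like growth factor (IGF) system was followed, in 10 genes, in aortic smooth muscle cells (SMCs) from mice with and without floxed genes for the TGF-β receptors. They were the ligand genes *Igf1* and *Igf2*, the receptor genes *Igf1r* and *Igf2r*, and the binding protein genes *Igfbp2* to *Igfbp7*, taken by symbol from a table of 52636 genes. All 10 were in the table, and all 10 passed the filter on low counts that left 22320 genes to test.

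The 12 libraries were bulk RNA-seq of SMCs sorted for GFP from 12-week-old C57BL/6J mice. GFPiSMC mice carried an inducible Cre driven by *Myh11* (*Myh11*-CreERT2) and the mT/mG reporter, which turns on GFP where Cre has acted, with no floxed *Tgfbr* alleles. Tgfbr1/2iSMCKO mice carried the same Cre and reporter and, in addition, floxed *Tgfbr1* and *Tgfbr2* on both chromosomes. Each genotype gave 3 libraries from the ascending aorta and arch (ascending/arch) and 3 from the descending thoracic aorta. Both genotypes received tamoxifen for 5 days, started at 11 weeks of age with 2 mg/d per the study's methods. The labels of all libraries also name 1 mg/d at 4 weeks of age, the schedule the methods give for a subgroup. Each library held 9208 to 20000 sorted cells from 1 aortic segment. Since both genotypes shared Cre, reporter, and tamoxifen, the comparison is between cells with and without floxed receptor alleles. The study asked how short-term loss of TGF-β signaling alters transcription in adult SMCs of both segments.

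IGF-1 and IGF-2 are secreted growth factors that act on the receptor tyrosine kinase IGF1R and so on PI3K and AKT, promoting growth and survival of vascular SMCs. IGF2R, also the cation-independent mannose 6-phosphate receptor, carries IGF-2 and lysosomal enzymes into the cell and is not a kinase. IGF binding proteins hold the ligands outside the cell, so that their amounts and the proteases that cut them set how much ligand is free, and several also act on matrix and cell surface without ligand. IGFBP7 is the divergent member, with weak affinity for IGFs.

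The promoters of the 3 members that passed the test between genotypes are shown first. RefSeq sequences on GRCm38.p6 were found for all 10 members, in 14 windows of the 250 bases before a transcription start. In the sequences below, capitals mark the GC box, GGGCGG on either strand, which was the only searched motif present in the window shown for *Igfbp2* (window 1 of its 2) or *Igfbp7*, while the *Igfbp5* window held none of the 5 motifs searched. The windows are chr1:72824230-72824479 on the plus strand (*Igfbp2*), chr5:77408046-77408295 on the minus strand (*Igfbp7*), and chr1:72874866-72875115 on the minus strand (*Igfbp5*), each printed 5′ to 3′.
Igfbp2: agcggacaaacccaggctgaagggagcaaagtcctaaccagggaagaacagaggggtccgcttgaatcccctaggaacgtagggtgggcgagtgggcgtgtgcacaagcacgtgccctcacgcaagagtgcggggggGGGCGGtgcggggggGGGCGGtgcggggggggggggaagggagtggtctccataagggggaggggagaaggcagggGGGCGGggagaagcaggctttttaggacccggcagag
Igfbp7: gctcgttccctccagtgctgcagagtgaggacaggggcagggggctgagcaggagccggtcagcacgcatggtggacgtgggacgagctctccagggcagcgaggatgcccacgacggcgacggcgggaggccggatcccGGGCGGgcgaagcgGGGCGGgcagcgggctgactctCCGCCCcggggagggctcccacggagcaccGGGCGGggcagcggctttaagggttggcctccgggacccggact
Igfbp5: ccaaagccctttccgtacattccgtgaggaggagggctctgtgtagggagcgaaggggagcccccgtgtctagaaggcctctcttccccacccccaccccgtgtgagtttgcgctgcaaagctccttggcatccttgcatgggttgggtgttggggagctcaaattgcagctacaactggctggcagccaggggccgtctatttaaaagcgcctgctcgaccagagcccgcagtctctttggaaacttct

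The *Igfbp2* window held 3 GC boxes, starting 113, 98, and 37 bases before the start site, with 67.2% G and C and 14 CpG dinucleotides. The *Igfbp7* window held 4, starting 110, 96, 74, and 44 bases before the start, with 74.0% G and C and 26 CpG dinucleotides. The *Igfbp5* window had 58.8% G and C and 10 CpG dinucleotides. Of 32851 RefSeq promoter windows of the same length, 32.7% held a GC box. Among the 14 windows of members, 6 held one, from 5 members. These were *Igfbp2*, *Igfbp7*, and *Igf2*, *Igf1r*, and *Igf2r*, of which the last 3 were not called between genotypes. The SMAD half-site, spelled CAGAC and searched like all motifs on both strands, was found in 42.2% of all windows. The AP-1 motif TGANTCA was found in 6.75% of all windows and in 2 of the 14 windows of members, from 2 members. The TATA box, searched as the letters TATAAA, was found in 12.4% of all windows and in 2 of the 14 windows of members, from 2 members. The FOXO motif, searched as the letters GTAAACA, was found in 3.17% of all windows and in a window of 0 members. The SMAD half-site lay in 7 of the 14 windows of members, from 5 of the 10 members. These included window 2 of *Igfbp2* and none of the windows printed. These matches describe letters in short windows and no binding.

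*Igfbp2* (ENSMUSG00000039323.18, chromosome 1, 72824503 to 72852474, plus strand, GRCm38) and *Igfbp5* (ENSMUSG00000026185.8, chromosome 1, 72857932 to 72874884, minus strand) are neighbors. Their 3′ ends face each other across 5457 bases, with 0 annotated genes between them.

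The unit of level is CPM, a gene's count per library total with TMM scaling of that total. Where genes are compared with each other, CPM was divided by kilobases of annotated exon. Library totals were 20467027 to 31392396 counts. SMC identity was clear, since all 8 smooth muscle markers were detected in every library and summed to 33927 to 47855 CPM. *Tgfbr2* was at 88.9 to 128 CPM in GFPiSMC libraries and at 68.2 to 102 CPM in Tgfbr1/2iSMCKO libraries, and *Tgfbr1* at 196 to 292 and at 198 to 295 CPM. Neither receptor gene passed the test (log2 fold change −0.26 for *Tgfbr2*, adjusted p = 0.233, and 0.10 for *Tgfbr1*, adjusted p = 0.790, edgeR's quasi-likelihood test), and counts over a whole gene do not separate the floxed exons. Libraries of 1 genotype with the same number are taken as 2 segments of 1 animal, which the labels do not state outright, so the p-values measure the spread between libraries of 3 animals a genotype.

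Per kilobase, *Igfbp7* stood far above every other member in all 12 libraries. It was at 759 ± 76.5 CPM per kb (SD, n = 3) in GFPiSMC ascending/arch cells, and *Igf1r*, next in the order of means over 12 libraries, was at 8.80 ± 0.233. *Igfbp7* made up 97.8% ± 0.20 of the length-scaled sum of the 6 binding protein genes there. In GFPiSMC ascending/arch cells the order after *Igfbp7* and *Igf1r* was *Igfbp2*, *Igfbp4*, *Igf2r*, *Igfbp5*, *Igf1*, *Igfbp6*, *Igf2*, and *Igfbp3*. The 3 libraries overlapped between the neighbors *Igfbp2* (6.10 to 8.28 CPM per kb) and *Igfbp4* (5.79 to 7.17). From *Igf1* (1.04 to 1.84) through *Igfbp6* (0.30 to 1.17) and *Igf2* (0.26 to 0.73) to *Igfbp3* (0.12 to 0.50), each gene overlapped the next. *Igf1* lay above *Igf2* and *Igfbp3*. The *Igf1r* libraries at 8.58 to 9.04 lay above *Igfbp2*, those of *Igf2r* (4.20 to 5.56) below *Igfbp4*, and those of *Igfbp5* (2.23 to 3.51) below *Igf2r*. The ligand genes were thus low beside their receptors, with *Igf2* at 0.55 ± 0.25 CPM per kb against 4.74 ± 0.72 for *Igf2r*. The scaling uses all annotated exons, 1209 bases for *Igfbp7* and 16791 for *Igf1r*, which understates a gene that uses a short transcript.

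**Figure D1:**
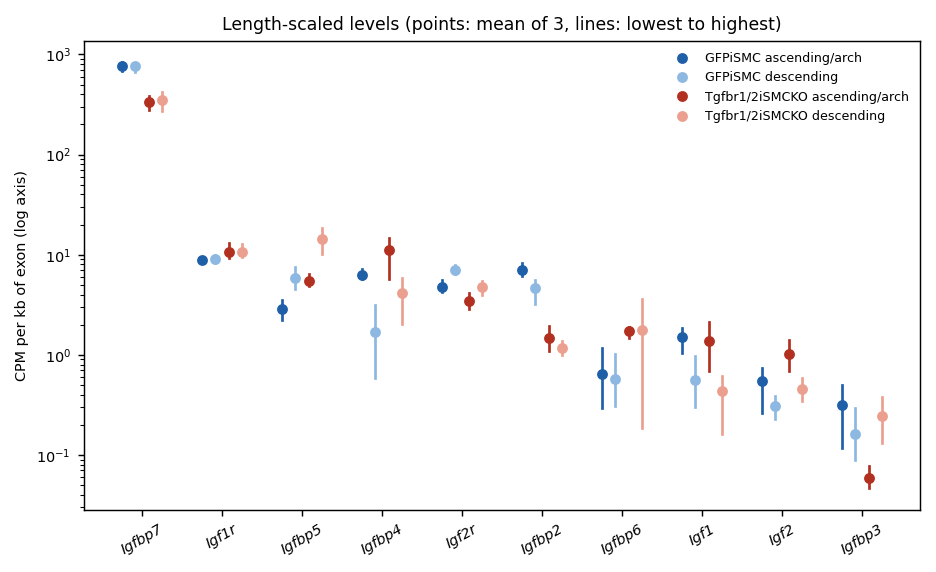
Level of each of the 10 genes in CPM per kb of annotated exon (log axis), by genotype and aortic segment; points are the mean of 3 libraries, and lines run from the lowest to the highest library. *Igfbp7* lies above all other members in every group, and *Igfbp3* has the lowest mean over the 12 libraries.

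Between genotypes, 3 of the 10 members passed the test over 12 libraries. *Igfbp2* fell 4.39-fold and *Igfbp7* fell 2.22-fold in Tgfbr1/2iSMCKO cells, while *Igfbp5* rose 2.17-fold. Across all genes tested, 5.03% passed at an adjusted p under 0.05 (1.8% higher and 3.23% lower in Tgfbr1/2iSMCKO cells), and 2.67% did so with a change over 2-fold, which all 3 members had. The median log2 fold change of the 10 members was 0.00, beside 0.04 for all genes. No ligand or receptor gene was called.

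*Igfbp2* encodes a binding protein that binds IGF-2 with high affinity and integrins through an RGD sequence. It was at 15.3, 11.3, and 12.8 CPM in GFPiSMC ascending/arch cells (replicates 1, 2, and 3, as in all lists of 3 values) and at 9.67, 10.3, and 5.99 CPM in GFPiSMC descending cells. In Tgfbr1/2iSMCKO cells it was at 3.57, 2.57, and 2.03 CPM in the ascending/arch and at 2.57, 2.1, and 1.82 CPM in the descending aorta. All 6 Tgfbr1/2iSMCKO libraries lay below all 6 GFPiSMC libraries. The log2 fold change was −2.13 (SE 0.22, adjusted p = 6.69e-05, edgeR's quasi-likelihood test with Benjamini-Hochberg adjustment). With the counts of both segments summed per animal, it was −2.14 with an adjusted p of 0.00778 (edgeR). Over 15 alternative analyses, it ranged from −2.32 to −2.00 on the log2 scale, with an adjusted p of 0.00778 at most.

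*Igfbp7* (ENSMUSG00000036256.13, chromosome 5, 77349240 to 77408041, minus strand) encodes a secreted protein of vascular basement membranes, also called angiomodulin. In GFPiSMC cells it was at 905, 1015, and 831 CPM in the ascending/arch and at 989, 806, and 957 CPM in the descending aorta. In Tgfbr1/2iSMCKO libraries, it was at 412, 462, and 334 CPM in the ascending/arch and at 431, 515, and 330 CPM in the descending aorta. Again all 6 Tgfbr1/2iSMCKO libraries lay below all 6 GFPiSMC libraries, a separation that 2 of 10 members and 4.39% of all genes showed. The log2 fold change was −1.15 (SE 0.12, adjusted p = 7.46e-05, edgeR), and −1.14 with counts summed per animal (adjusted p = 0.00686, edgeR). The 3′ ends of *Igfbp7* and *Polr2b*, on the other strand, overlap between 77349240 and 77349324, and *Polr2b* had a median of 157 CPM, below the lowest *Igfbp7* library at 330 CPM. The library kit marks no strand, so reads from the shared stretch cannot be told apart.

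Because *Igfbp7* dominated the binding protein genes, its fall carried their sum. The length-scaled sum of the 6 binding protein genes was 776 ± 76.6 CPM per kb in GFPiSMC ascending/arch cells and 353 ± 48.4 in Tgfbr1/2iSMCKO ascending/arch cells. In the descending aorta, it was 772 ± 81.2 and 374 ± 72.3 CPM per kb. The sum therefore follows *Igfbp7* and does not describe the other binding protein genes. In the ascending/arch, means of GFPiSMC and Tgfbr1/2iSMCKO cells were 6.29 and 11.1 CPM per kb for *Igfbp4*, and 2.89 and 5.52 for *Igfbp5*. They were 0.64 and 1.73 for *Igfbp6*, 7.09 and 1.47 for *Igfbp2*, and 0.32 and 0.06 for *Igfbp3*. The share of *Igfbp5* in the sum of 6 genes was 0.37% and 1.61% in the ascending/arch of GFPiSMC and Tgfbr1/2iSMCKO mice, and 0.76% and 4.06% in the descending aorta. The share also rises because the sum fell. *Igfbp5* itself was higher by 1.91-fold in the ascending/arch, not called by edgeR, and by 2.47-fold in the descending aorta. *Igfbp7* still held 94.2% ± 2.29 and 93.9% ± 2.51 of the sum in the 2 Tgfbr1/2iSMCKO groups. These shares describe transcripts by annotated length and carry no test of their own.

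*Igfbp5* encodes a binding protein that attaches to extracellular matrix and is made by SMCs and osteoblasts. It was at 17.5, 21.1, and 13.4 CPM in GFPiSMC ascending/arch cells and at 31.1, 29.6, and 38.8 CPM in Tgfbr1/2iSMCKO ascending/arch cells. Descending values were 33.1, 27.5, and 45.2 CPM in GFPiSMC cells and 60.7, 89.3, and 110.8 CPM in Tgfbr1/2iSMCKO cells. No GFPiSMC library reached a Tgfbr1/2iSMCKO library of its segment, but GFPiSMC descending and Tgfbr1/2iSMCKO ascending/arch libraries covered the same range. The log2 fold change was 1.12 (SE 0.19, adjusted p = 0.00308, edgeR), and 1.21 with counts summed per animal (adjusted p = 0.0388, edgeR). Without segment in the edgeR fit, the adjusted p was 0.0917.

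**Figure D2:**
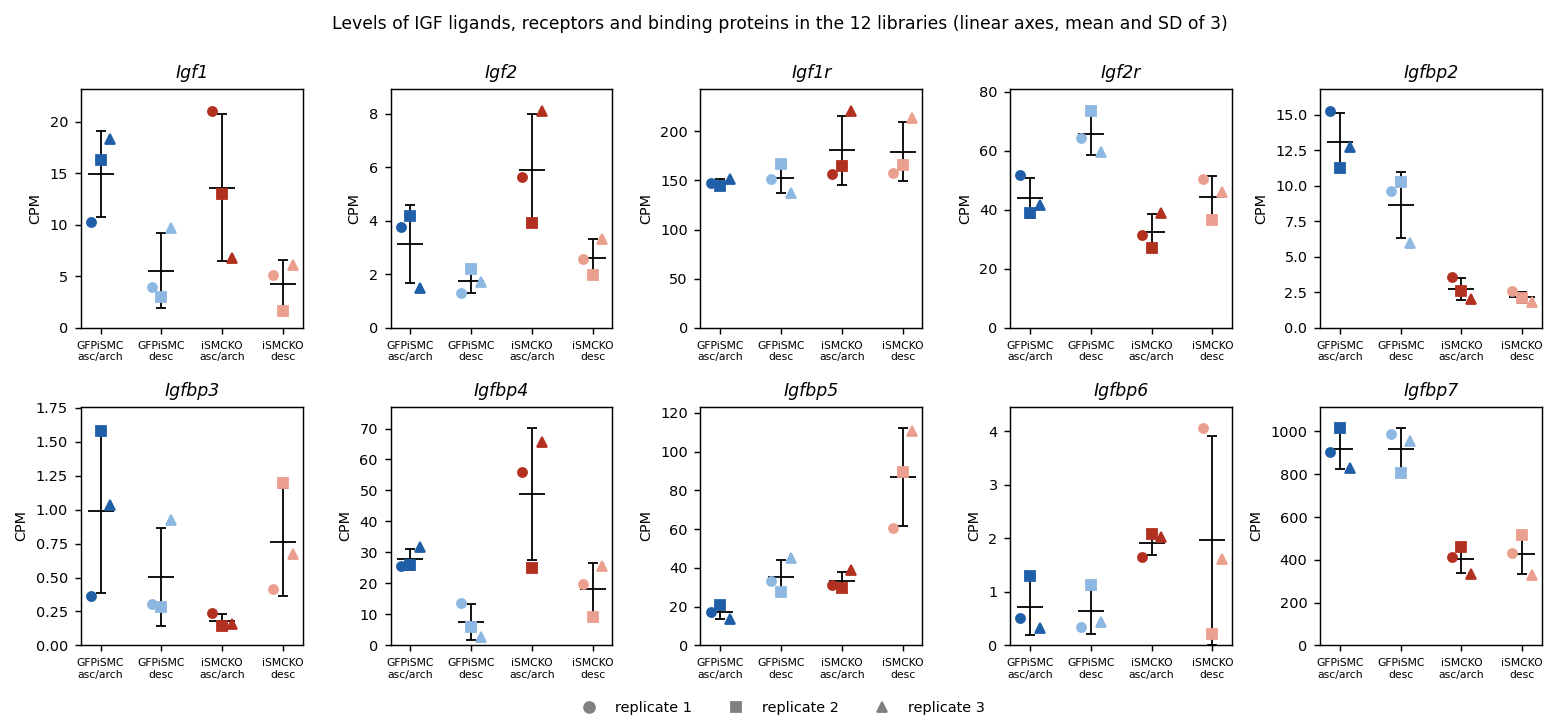
CPM (linear axes) of each of the 10 members in all 12 libraries, by genotype (iSMCKO stands for Tgfbr1/2iSMCKO) and segment (asc/arch and desc); symbols are replicates 1 to 3, and bars the mean and SD of 3. *Igfbp2* and *Igfbp7* are lower in every Tgfbr1/2iSMCKO library than in any GFPiSMC library, and *Igfbp5* is higher in Tgfbr1/2iSMCKO cells within each segment.

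Of the receptor genes, *Igf2r* (chromosome 17, 12682406 to 12769664, minus strand) lay just outside the threshold. It was at 51.7, 39.1, and 41.5 CPM in GFPiSMC ascending/arch cells and at 31.5, 27.0, and 38.9 CPM in Tgfbr1/2iSMCKO ascending/arch cells. The descending values were 64.3, 73.6, and 59.6 CPM in GFPiSMC cells and 50.4, 36.7, and 46.1 CPM in Tgfbr1/2iSMCKO cells. The Tgfbr1/2iSMCKO libraries lay below the GFPiSMC libraries in each segment, and the log2 fold change, −0.51 with an SE of 0.14, had an adjusted p of 0.0569 (edgeR). It was called by DESeq2 (adjusted p = 0.0181), by edgeR on genes averaging 50 counts or more (0.0185), and by edgeR without Tgfbr1/2iSMCKO replicate 3 (0.0423), but with edgeR on counts summed per animal the adjusted p was 0.286. With *Igfbp2*, *Igfbp5*, and *Igfbp7*, it was 1 of 4 members whose genotypes did not overlap in either segment, with the same direction in both, as held for 6.14% of all genes. *Igf2r* is imprinted in the mouse, and the antisense gene *Airn*, at a median of 12.2 CPM, overlaps it between 12741311 and 12769664. Reads from this shared stretch cannot be told apart.

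*Igf1r* (chromosome 7, 67952827 to 68233668, plus strand), which encodes the signaling receptor, was not called. It was at 147.6, 144.0, and 151.8 CPM in GFPiSMC ascending/arch cells and at 151.8, 166.4, and 137.6 CPM in GFPiSMC descending cells. In Tgfbr1/2iSMCKO cells it was at 156.8, 164.2, and 220.7 CPM in the ascending/arch and at 157.9, 165.8, and 213.5 CPM in the descending aorta. In the ascending/arch, the 3 Tgfbr1/2iSMCKO libraries lay above the 3 GFPiSMC libraries, and in the descending aorta the genotypes overlapped. Genotypes did not overlap in the ascending/arch for 19% of all genes. Both libraries of Tgfbr1/2iSMCKO replicate 3 lay above the rest. The log2 fold change was 0.26 (SE 0.12, adjusted p = 0.271, edgeR), and 0.09 without that replicate.

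The ligand genes showed no called difference between genotypes. *Igf1* (chromosome 10, 87858265 to 87937042, plus strand) was at 10.3, 16.3, and 18.3 CPM in GFPiSMC ascending/arch cells and at 21.0, 13.0, and 6.77 CPM in Tgfbr1/2iSMCKO ascending/arch cells. Farther down, in the descending aorta, *Igf1* was at 3.95, 3.01, and 9.72 CPM in GFPiSMC cells and at 5.13, 1.61, and 6.07 CPM in Tgfbr1/2iSMCKO cells. The genotypes overlapped in both segments, and the genotype effect was −0.25 on the log2 scale (SE 0.38, adjusted p = 0.852, edgeR, 95% interval −1.01 to 0.50). *Igf2* (chromosome 7, 142650766 to 142666816, minus strand), an imprinted fetal growth factor gene, was at 3.78, 4.19, and 1.49 CPM in GFPiSMC ascending/arch cells and at 1.3, 2.21, and 1.73 CPM in GFPiSMC descending cells. *Igf2* in Tgfbr1/2iSMCKO cells was at 5.63, 3.93, and 8.12 CPM in the ascending/arch and at 2.57, 1.98, and 3.34 CPM in the descending aorta. For *Igf2*, the genotype effect was 0.75 on the log2 scale (SE 0.30, adjusted p = 0.220, edgeR), and the genotypes overlapped in both segments. Both genes share bases with an antisense gene (*Igf1os*, 7 to 21 counts a library, and *Igf2os*, 3 to 25).

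The remaining binding protein genes were not called either. *Igfbp4* (chromosome 11, 99041244 to 99054392, plus strand), whose protein inhibits IGF action until it is cut, was at 25.6, 26.1, and 31.6 CPM in GFPiSMC ascending/arch cells and at 56.0, 25.0, and 65.6 CPM in Tgfbr1/2iSMCKO ascending/arch cells. Its descending levels were lower, at 13.8, 6.06, and 2.61 CPM in GFPiSMC cells and at 19.8, 9.03, and 25.7 CPM in Tgfbr1/2iSMCKO cells. The log2 fold change was 1.04 (SE 0.38, adjusted p = 0.157, edgeR), and replicate 2 was the lowest Tgfbr1/2iSMCKO library in each segment. Without Tgfbr1/2iSMCKO replicate 2, it was 1.37, with an adjusted p of 0.0496 (edgeR). This was the only 1 of 15 alternative analyses in which *Igfbp4* passed between genotypes. With each replicate left out in turn, its log2 fold change ranged from 0.73 to 1.37, with an adjusted p of 0.443 at most (edgeR). *Igfbp6* (chromosome 15, 102144362 to 102149511, plus strand), which prefers IGF-2, was at 0.21 to 4.06 CPM, from 5 to 98 counts, and its genotype effect was 1.51 on the log2 scale (SE 0.57, adjusted p = 0.182, edgeR). The effect of *Igfbp6* ran from 1.04 without Tgfbr1/2iSMCKO replicate 1 (adjusted p = 0.538, edgeR) to 2.24 without GFPiSMC replicate 2 (adjusted p = 0.105). *Igfbp3* (chromosome 11, 7206086 to 7213923, minus strand), the main IGF carrier of plasma, was at 0.15 to 1.58 CPM, from 3 to 46 counts, and its genotype effect was −0.83 (SE 0.67, adjusted p = 0.652, edgeR, 95% interval −2.14 to 0.47).

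**Figure D3:**
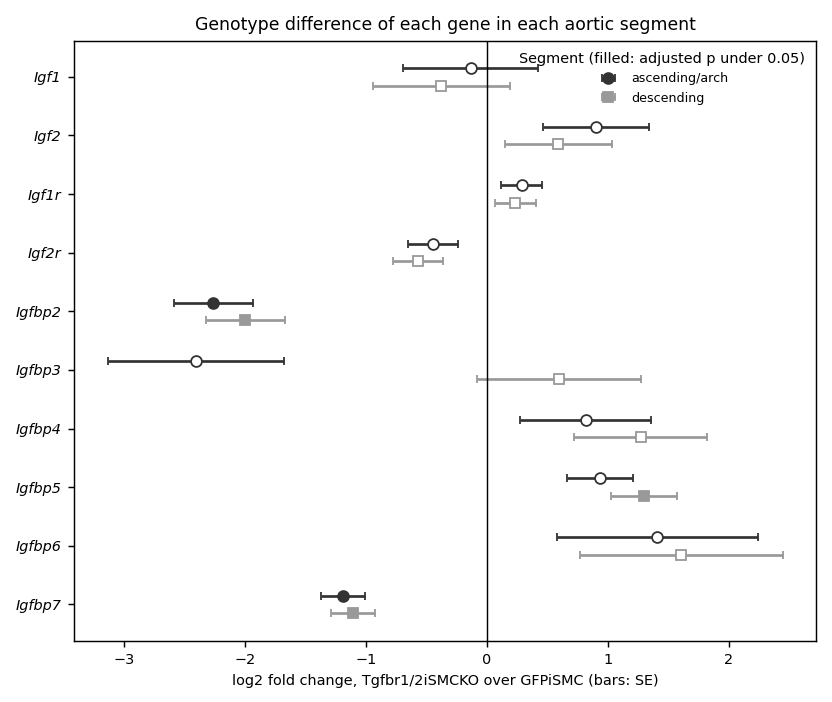
Genotype effect (log2 fold change, Tgfbr1/2iSMCKO over GFPiSMC, edgeR) of each member in the ascending/arch (circles) and descending aorta (squares); bars are SEs, and filled symbols passed an adjusted p under 0.05. *Igfbp2* and *Igfbp7* are filled below 0 in both segments, and *Igfbp5* is filled above 0 in the descending aorta.

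Within segments, *Igfbp2* and *Igfbp7* fell in both. The 3 libraries of each genotype did not overlap for 7 of 10 members in the ascending/arch (19% of all genes) and for 4 of 10 in the descending aorta (14.9% of all genes). In the ascending/arch, the log2 fold changes were −2.26 (SE 0.33, adjusted p = 0.00357, edgeR) for *Igfbp2* and −1.19 (SE 0.18, adjusted p = 0.00498) for *Igfbp7*, so that 2 of 10 members were called, against 1.41% of all genes. In the descending aorta, they were −2.00 (SE 0.33, adjusted p = 0.00711, edgeR) and −1.11 (SE 0.18, adjusted p = 0.00711). *Igfbp5* was also called there, at 1.3 (SE 0.27, adjusted p = 0.0321), which made 3 of 10 members against 1.72% of all genes. In the ascending/arch, *Igfbp5* was at 0.94 (SE 0.27, adjusted p = 0.148, edgeR), where DESeq2 called it (0.95, adjusted p = 0.0456). With the descending libraries fitted alone, none of the 3 was called (adjusted p = 0.0621, 0.0674, and 0.116 for *Igfbp2*, *Igfbp7*, and *Igfbp5*). The descending call of *Igfbp5* was lost without any 1 of 5 replicates in turn, for example without GFPiSMC replicate 1 (1.26, adjusted p = 0.239, edgeR), and was kept without GFPiSMC replicate 3. That of *Igfbp2* was lost without GFPiSMC replicate 1 (adjusted p = 0.0648, edgeR) or 2 (0.0620), and that of *Igfbp7* without GFPiSMC replicate 1 (0.0601) or Tgfbr1/2iSMCKO replicate 1 (0.0658). In the ascending/arch, *Igfbp7* lost its call without Tgfbr1/2iSMCKO replicate 1 (adjusted p = 0.0513, edgeR), and *Igfbp2* kept its call without any 1 replicate.

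The genotype effect was not shown to differ between segments for any member. None of 10 passed the edgeR test of the difference, as for 0% of all genes, with 1 member and 2.95% of all genes at an unadjusted p under 0.05, and DESeq2 called 0 members beside 11 of all genes. The difference, descending effect minus ascending/arch effect, was 0.27 (95% interval −0.61 to 1.14) for *Igfbp2*, 0.08 (−0.41 to 0.57) for *Igfbp7*, and 0.37 (−0.38 to 1.11) for *Igfbp5*. The member at an unadjusted p under 0.05 was *Igfbp3*. Its values were 0.37, 1.58, and 1.03 CPM in GFPiSMC and 0.24, 0.15, and 0.16 CPM in Tgfbr1/2iSMCKO ascending/arch cells. Its descending values overlapped, at 0.31, 0.28, and 0.92 CPM in GFPiSMC cells and at 0.41, 1.20, and 0.67 CPM in Tgfbr1/2iSMCKO cells. It was lower in Tgfbr1/2iSMCKO cells of the ascending/arch without overlap and overlapped in the descending aorta, from few counts.

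Between segments, *Igfbp5* was the 1 member of 10 that passed the test over 12 libraries, as did 0.797% of all genes. It was 2.31-fold higher in the descending aorta (log2 fold change 1.21, SE 0.19, adjusted p = 0.00751, edgeR), and the 3 descending libraries lay above the 3 ascending/arch libraries in each genotype. With the animal as a block, the adjusted p was 0.0323 (edgeR). It was not called without GFPiSMC replicate 1 (adjusted p = 0.0503) or GFPiSMC replicate 3 (adjusted p = 0.0711). Within a genotype, the difference was 1.02 (SE 0.27, adjusted p = 0.253, edgeR) in GFPiSMC cells and 1.39 (SE 0.27, adjusted p = 0.110) in Tgfbr1/2iSMCKO cells. No member was called within a genotype by edgeR, beside 0.376% of all genes in GFPiSMC cells and 0.112% in Tgfbr1/2iSMCKO cells. Unadjusted p-values under 0.05 were reached by 4 members in GFPiSMC and 6 in Tgfbr1/2iSMCKO cells (5.98% and 3.68% of all genes), and DESeq2 called 0 and 1 members, beside 271 and 164 of all genes.

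*Igf1*, *Igfbp4*, and *Igf2* had lower values in descending libraries, short of the threshold. *Igf1* differed by −1.55 on the log2 scale (SE 0.39, adjusted p = 0.134, edgeR; 0.00511 by DESeq2), and its descending libraries lay below its ascending/arch libraries in each genotype. With *Igfbp5*, it was 1 of 2 members whose segments did not overlap in either genotype, as held for 1.64% of all genes. *Igfbp4* differed by −1.66 (SE 0.38, adjusted p = 0.0803, edgeR; 0.00113 by DESeq2). In 2 further alternatives *Igfbp4* also passed, with an adjusted p of 0.0400 for edgeR on genes averaging 50 counts or more and 0.0218 for limma-voom in which the animal was a random effect. *Igf2* differed by −1.01 (SE 0.30, adjusted p = 0.304, edgeR; 0.0564 by DESeq2), with its descending libraries below its ascending/arch libraries in Tgfbr1/2iSMCKO cells and overlap in GFPiSMC cells. *Igf2r* was higher in descending cells by 0.51 (SE 0.14, adjusted p = 0.194, edgeR; 0.0421 by DESeq2). *Igfbp2* differed by −0.47 (SE 0.22, adjusted p = 0.892, edgeR), with its descending libraries below its ascending/arch libraries in GFPiSMC cells and overlap in Tgfbr1/2iSMCKO cells. *Igfbp3* differed by 0.43 (SE 0.66, adjusted p = 0.999, edgeR). Its descending libraries lay above its ascending/arch libraries in Tgfbr1/2iSMCKO cells and overlapped them in GFPiSMC cells. *Igf1r*, *Igfbp6*, and *Igfbp7* had log2 differences of 0.01, −0.07, and 0.04 between segments.

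Fibroblast markers moved the same way as *Igf1* and *Igfbp4* between segments. The summed level of 8 fibroblast markers was 108 to 160 CPM in GFPiSMC ascending/arch libraries and 27.0 to 41.0 CPM in GFPiSMC descending libraries, and 84.7 to 244 and 18.3 to 41.3 CPM in the Tgfbr1/2iSMCKO groups. All 7 tested were lower in descending libraries, from −4.30 (*Lum*) to −0.87 (*Pdgfra*), with a median of −2.02. All 7 had an unadjusted p under 0.05 (edgeR), and 4 passed at an adjusted p under 0.05. They were *Dcn* (−2.30, adjusted p = 0.0418, edgeR) and *Lum* (−4.30, adjusted p = 0.000344), both matrix proteoglycan genes of fibroblasts, *Scara5* (−2.02, adjusted p = 0.0162), and *Cd34* (−1.35, adjusted p = 0.0201). *Pi16* was at 0 in 2 libraries, *Dpt* in 1, and *Clec3b* in 4. The order of the 3 libraries by *Igf1* was their order by *Dcn* in 3 of 4 groups and by *Lum* in 2 of 4, and the order by *Igfbp4* was that of *Dcn*, and of *Lum*, in 1 of 4. In Tgfbr1/2iSMCKO ascending/arch cells, where both markers kept the order of *Igf1*, *Dcn* was at 120, 69.0, and 27.6 CPM where *Igf1* was at 21.0, 13.0, and 6.77 CPM. The part of fibroblast RNA in these levels was not tested, and in bulk samples fewer cells of a type and less RNA per cell cannot be told apart.

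**Figure D4:**
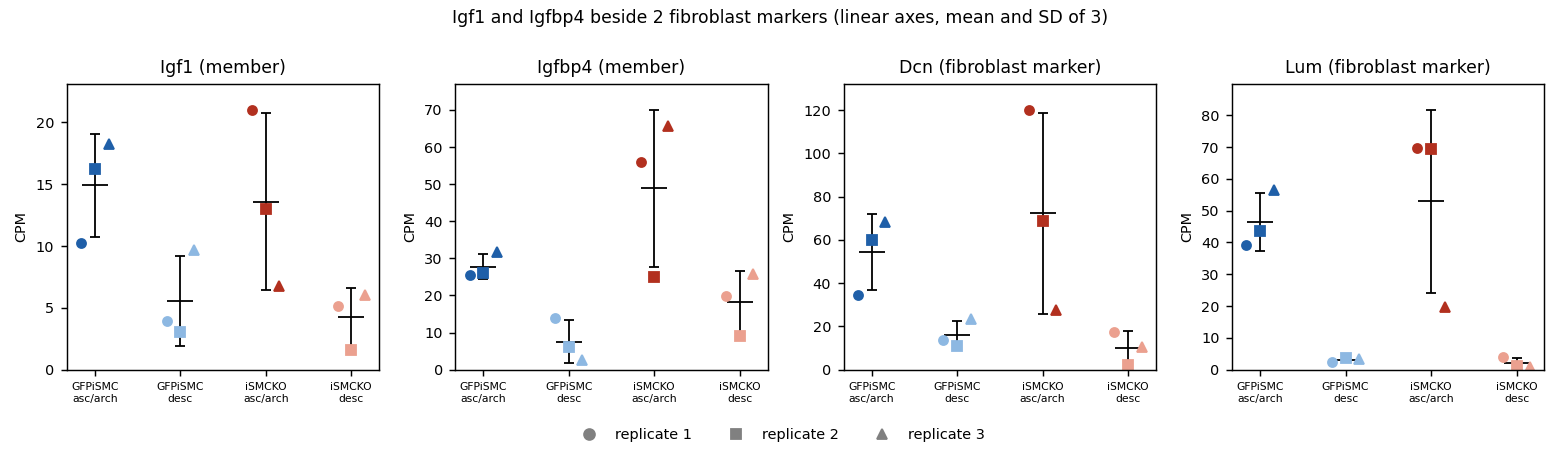
CPM (linear axes) of *Igf1* and *Igfbp4* beside the fibroblast markers *Dcn* and *Lum* in all 12 libraries, by genotype (iSMCKO stands for Tgfbr1/2iSMCKO) and segment (asc/arch and desc); symbols are replicates 1 to 3, and bars the mean and SD of 3. All 6 descending libraries of *Dcn* and *Lum* lie below all 6 ascending/arch libraries, and those of *Igf1* do so within each genotype.

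Between genotypes, 0 of 7 fibroblast markers were called by edgeR and 0 had an unadjusted p under 0.05, with a median of 0.32 and a range from −0.21 (*Lum*) to 0.98 (*Dpt*). Within segments, 1 marker had an unadjusted p under 0.05 in each, *Dpt* in the ascending/arch (1.93, adjusted p = 0.422, edgeR) and *Pi16* in the descending aorta (2.74, adjusted p = 0.322). Macrophage markers summed to 6.41 to 22.8 CPM in all libraries, with 0 of 7 called and *Adgre1* at 0 in 5 libraries. Endothelial markers summed to 83.6 to 111 CPM in GFPiSMC and to 63.8 to 112 CPM in Tgfbr1/2iSMCKO libraries. Most of this sum was *Pecam1* alone, at 61.6 to 95.7 and 44.4 to 87.5 CPM. Of 8 endothelial genes, *Cdh5* was called higher (2.97, adjusted p = 0.0250, edgeR) and *Erg* lower (−1.13, adjusted p = 0.00652). *Cdh5* was at 0 to 0.513 CPM in GFPiSMC libraries, at 0 in 2 of them, and at 0.497 to 2.71 CPM in Tgfbr1/2iSMCKO libraries. Of 4 pericyte genes tested, *Kcnj8* was called higher (1.3, adjusted p = 0.00616, edgeR), with *Higd1b* at 0 in 10 libraries. Mesothelial markers summed to 2.81 to 4.18 CPM in GFPiSMC and to 1.224 to 2.98 CPM in Tgfbr1/2iSMCKO libraries, and all 5 had negative log2 fold changes (median −0.58, lowest *Krt19* at −2.71), with 0 called by edgeR and 1 at an unadjusted p under 0.05. Of 10 immediate early genes, which respond within minutes to stimulation, 0 were called by edgeR and 4 had an unadjusted p under 0.05, with a median of −0.67 and *Fosb* lowest at −2.06 (adjusted p = 0.0976). The part of other cells and of these genes in the binding protein differences was not tested.

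Over the 12 libraries, the genes whose log2 CPM followed the 3 called members most closely, among the 11152 genes averaging 100 counts or more, are given as a description. For *Igfbp2*, they were *Col15a1*, a multiplexin collagen (Pearson r = 0.969), *Mfap4*, a microfibril gene (0.969), and *Cgref1* (0.967). For *Igfbp7*, they were *Ramp1*, the CGRP receptor subunit (0.990), *Cd59a*, a complement inhibitor (0.983), and *Pxdc1* (0.983). These 6 genes were all called lower in Tgfbr1/2iSMCKO cells, so the points share the genotype difference. For *Igfbp5*, they were *Fign* (0.901), *Itgb3bp* (0.900), and *Calcrl* (0.895), of which none was called between genotypes.

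The wider pathway was read in 7 lists of 89 genes, of which 84 were tested. Of these, 4 rose and 4 fell between genotypes, 9.52% of those tested, beside 5.03% of all genes. Their median log2 fold change was −0.05, beside 0.04 for all genes. No listed pathway gene was called between segments by edgeR.

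Among 13 tested carriers and proteases of binding proteins (*Igfbp1* and *Igfbpl1* were too low to test), 1 rose and 1 fell, with a median of −0.19. *Htra1*, a secreted serine protease that cuts IGFBP5, was at 540 ± 76.6 CPM (SD, n = 6) in GFPiSMC cells, with all libraries between 446 and 650. It fell to 205 ± 21.2 CPM in Tgfbr1/2iSMCKO cells, between 175 and 242. The log2 fold change was −1.40 (SE 0.11, adjusted p = 5.41e-06, edgeR; 0.00367 with counts summed per animal). *Stc1*, which encodes stanniocalcin-1, an inhibitor of the IGFBP4 protease PAPP-A, rose from 11.8 ± 6.70 CPM to 33.4 ± 6.21 CPM, by 1.62 on the log2 scale (SE 0.28, adjusted p = 0.00354, edgeR; 0.0475 summed per animal). *Pappa* itself was at 1.41 to 5.18 CPM, and its genotype effect was 0.51 (adjusted p = 0.575, edgeR).

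Genes downstream of the receptor were read beside the 5.03% of all genes called between genotypes. None of 14 tested genes for the insulin receptor and receptor adaptors was called by edgeR, with 1 at an unadjusted p under 0.05 and a range from −0.93 (*Irs2*) to 0.89 (*Sh2b2*). Of 24 genes of PI3K, AKT, FOXO, and mTOR signaling, 2 fell, 0 rose, and 22 were not called, with a median of −0.02 and a range from −0.76 (*Foxo4*, adjusted p = 0.270, edgeR) to 1.08 (*Pik3r2*, SE 0.56, adjusted p = 0.392). *Tsc2*, an mTORC1 inhibitor, fell by 0.70 on the log2 scale (SE 0.11, adjusted p = 0.00119, edgeR), from 106 to 124 CPM in GFPiSMC libraries to 59.0 to 81.6 CPM. *Foxo1*, a transcription factor that AKT keeps out of the nucleus, fell by 0.59 (SE 0.12, adjusted p = 0.00912). With counts summed per animal, neither was called (adjusted p = 0.0708 and 0.115, edgeR).

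Of 11 tested genes that FOXO factors are known to activate, 2 rose and 0 fell, with a median of 0.38. *Klf15* rose by 1.05 on the log2 scale (SE 0.17, adjusted p = 0.00192, edgeR; 0.0416 summed per animal), from 13.8 to 20.5 CPM in GFPiSMC libraries to 24.3 to 42.4 CPM in Tgfbr1/2iSMCKO libraries. *Fbxo32*, which encodes the ubiquitin ligase atrogin-1, rose by 0.62 (SE 0.14, adjusted p = 0.0207; 0.175 summed per animal). *Bcl6* was the lowest, at −0.22.

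In the growth hormone axis, 1 of 7 genes rose and 1 fell. *Socs2*, an inhibitor of growth hormone receptor signaling, fell by 0.86 on the log2 scale (SE 0.12, adjusted p = 0.000766, edgeR; 0.0523 summed per animal), from 71.6 ± 12.9 CPM to 39.5 ± 5.43 CPM (SD, n = 6). *Cish*, of the same family, was at 0 to 0.997 CPM in GFPiSMC and at 0.193 to 6.17 CPM in Tgfbr1/2iSMCKO libraries, and it passed the test with overlap between genotypes (2.90, SE 0.70, adjusted p = 0.0286, edgeR; 0.0182 summed per animal). *Ghr*, the growth hormone receptor gene, had a log2 fold change of −0.05 (adjusted p = 0.919).

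None of 3 genes for IGF2 mRNA-binding proteins and none of 12 tested imprinted genes was called between genotypes by edgeR, with 0 and 2 at an unadjusted p under 0.05. The IGF2 mRNA-binding protein genes ranged from −0.07 (*Igf2bp2*) to 0.45 (*Igf2bp3*). The imprinted genes ranged from −0.40 (*Gnas*) to 0.66 (*Peg10*), and *H19*, beside *Igf2*, was too low to test.

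**Figure D5:**
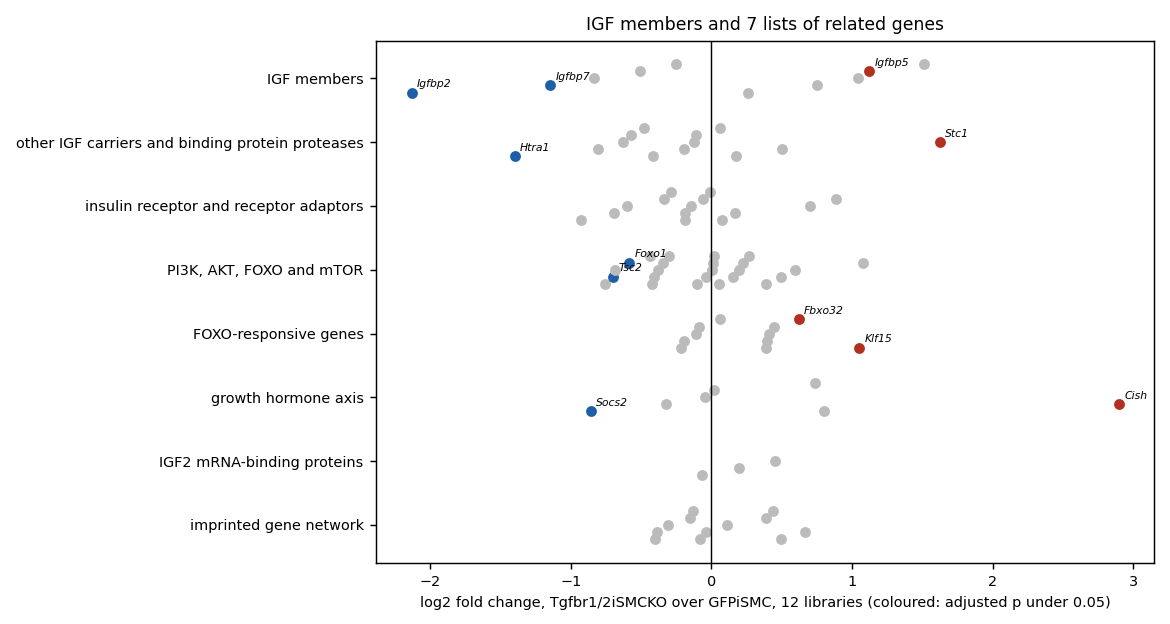
Genotype effect (log2 fold change over 12 libraries, Tgfbr1/2iSMCKO over GFPiSMC, edgeR) of each tested gene among the 10 members and in 7 pathway lists; each point is a gene, and named points, red if higher and blue if lower, passed an adjusted p under 0.05. The named points are 3 members and 8 pathway genes.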

How the data were processed

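Bulk RNA-seq counts of 12 libraries (2 genotypes, 2 segments, 3 replicates each) were used. The authors used Trim Galore 0.5.0 for trimming, HISAT2 2.1.0 for alignment against GRCm38, and StringTie 1.3.3b with GENCODE M15 gene models for quantification. Their own comparison used DESeq2 (1.22.1). As deposited, the values are whole-number counts per gene, not normalized; how StringTie coverage was turned into counts is not given in the sources used here. Counts of 1 were rarer (22574) than counts of 2 (32279). Symbols, exon lengths, and coordinates came from GENCODE M21 on the same build (52403 genes matched), and promoters from RefSeq.

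Differences were tested in edgeR (4.0.16, under R 4.3.3) after filterByExpr, with TMM and quasi-likelihood fits of segment and genotype, or of 4 group means for effects within a group and their difference. Benjamini-Hochberg adjustment covered 22320 genes, and a gene was called at an adjusted p under 0.05. SEs were derived from the fold change and its F statistic, and 95% intervals use this SE with a normal quantile, which makes them narrow for so few libraries. The fitting code was tested on simulated counts. Totals per library bound precision only through counting error. Within-group pairs of libraries differed beyond sampling noise (chi-square per degree of freedom 38.4 to 169), so none was counted as a duplicate.

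All 10 members are named, as are the targeted genes, listed genes at an adjusted p under 0.05 with the extremes of each pathway list, and the 3 genes most correlated with each called member. Members and lists were chosen with earlier results of these data known, and 1 listed gene is not reported here. Alternatives were RLE factors, library size only, other filters, DESeq2 1.42.0, limma-voom 3.58.1 with the animal as a random effect, counts summed per animal, blocks, other models, a test against a 2-fold change, and leaving out each replicate.

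Replicate numbers across segments of 1 genotype were taken as animals. The correlation of deviations from group means between segments was 0.19, −0.24, and 0.02 for GFPiSMC animals and 0.06, 0.38, and 0.66 for Tgfbr1/2iSMCKO animals. An exact permutation test of 3 against 3 animals cannot go below 0.10, so none is given.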

Additional observations from a re-analysis of the deposited data

How the results depend on the processing

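No member reversed direction with a call. Of 945 comparisons of a member's value under an alternative with its main value, 915 kept their side of the threshold, 19 lost a call, and 11 gained one. Most of the 945 start from a value that was not called, so the 915 says little about how firm the calls are. The descending call of *Igfbp5* between genotypes was kept in 7 of 14 alternatives. Over 12 libraries, 3 members were called between genotypes, 1 (*Igfbp2*) when tested against a 2-fold change, and 4 with a mean of at least 50 counts, with DESeq2, or without Tgfbr1/2iSMCKO replicate 2 or 3. In the ascending/arch, 2 were called, 3 with DESeq2, and 1 to 2 with a replicate left out. In the descending aorta, 3 were called, 0 with the segment fitted alone, and 0 to 3 with a replicate left out (0 without GFPiSMC replicate 1, and 3 without GFPiSMC replicate 3). Between segments, 1 was called over 12 libraries, 2 with a mean of at least 50 counts, 4 with DESeq2, 2 with limma-voom, and 0 to 1 with a replicate left out. In Tgfbr1/2iSMCKO cells, 0 were called between segments and 1 with DESeq2. The cause of these changes was not tested. At the same threshold, edgeR called 5.03% of all genes between genotypes and 0.797% between segments over 12 libraries. DESeq2 called 1901 of all genes between genotypes and 369 between segments. The counts of all genes given below also require a change over 2-fold, so they are not a background for these member counts.

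Replicate numbers are shared across genotypes. Deviations from group means of same-numbered libraries correlated at −0.20, 0.22, and 0.02 in the ascending/arch. In the descending aorta, the correlations were 0.01, −0.46, and −0.53. Whether libraries with the same number share anything beyond it, such as a batch, was not tested. With the number as a replicate block, 3 members were called between genotypes over 12 libraries, and *Igfbp5* lost its call in the descending aorta (log2 fold change 1.29, adjusted p = 0.0543, edgeR). With the animal as a block between segments, *Igfbp5* kept its call, and no other call of a member changed.

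Scaling by library size only moved the median log2 fold change of all genes between genotypes from 0.04 to 0.16, with no member changing sign. The number of all genes called beyond 2-fold between genotypes was 596, 137 when tested against a 2-fold change, 867 with DESeq2, and 438 to 632 with a replicate left out. In the ascending/arch it was 257 (DESeq2 591, 120 to 206 with a replicate left out), and in the descending aorta 317 (148 fitted alone, DESeq2 633, 131 to 283). Between segments it was 155 (DESeq2 268, 76 to 131), with 83 in GFPiSMC (DESeq2 249, 6 to 85) and 24 in Tgfbr1/2iSMCKO cells (DESeq2 148, 5 to 19), and 0 for the difference of the genotype effect (DESeq2 11, 0 to 3). *Igfbp3* and *Igfbp6* had the fewest counts among the members, 3 to 46 and 5 to 98 a library, and how far depth or the spread between replicates limits their tests was not tested.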

Other observations

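*Insr*, the insulin receptor gene and the closest relative of *Igf1r*, fell into separate ranges that followed neither genotype nor segment. It was at 107.6, 12.7, and 14.7 CPM in GFPiSMC ascending/arch cells and at 76.3, 87.2, and 87.4 CPM in GFPiSMC descending cells. In Tgfbr1/2iSMCKO cells it was at 101.3, 13.3, and 68.8 CPM in the ascending/arch and at 75.9, 17.5, and 21.9 CPM in the descending aorta. The genotype effect was −0.34 on the log2 scale (SE 0.63, adjusted p = 0.889, edgeR). *Igf1r* stayed between 137.6 and 220.7 CPM in the same libraries. Low libraries also occurred for *Gab1*, at 41.0, 2.88, and 39.0 CPM in GFPiSMC ascending/arch cells, and *Furin*, at 0.59, 14.1, and 8.59 CPM there. Whether these splits arise in the cells or in the quantification of transcripts was not tested. These 3 genes were singled out after their values were seen.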
